A study of Mus musculus with 3 samples.

Results

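Nrf2, the transcription factor encoded by Nfe2l2, is the main regulator of the transcriptional response to oxidative and electrophilic stress. The 10 genes described here are Nfe2l2, its inhibitor Keap1, the Nrf2 target genes Hmox1, Nqo1, Gclc, Gclm and Txnrd1, the autophagy adaptor Sqstm1, and the iron genes Tfrc and Fth1. They were chosen by name, and their m6A sites were all listed sites inside the gene span on the same strand (GENCODE M21, GRCm38). Of the 10 genes, 7 held at least 1 site and 3 (Nqo1, Gclm and Fth1) held none. Over all protein-coding genes, 23.1% held a site (5080 of 21951). The 7 genes held 34 of the 19301 sites in the list.

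The sites came from miCLIP2, in which RNA is UV-crosslinked to an antibody against N6-methyladenosine and the crosslinked nucleotide is read from the ends of the cDNAs. Poly(A)+ RNA of untreated RAW 264.7 cells, an established mouse macrophage line, was profiled in 3 replicates, and no other condition was used. The organism label is mouse, although the series text calls the line human, and every listed site lay at an A of the mouse genome. The list is pooled over the replicates and gives each site a prediction score of the m6Aboost model. This score rates how m6A-like a site is and is not a methylation level. By the paper, its inputs include the bases around the A, the transcript region and the signal relative to the rest of the transcript. The list holds no read counts, so the depth behind a site is unknown and no spread between replicates can be given. Intervals below are 95% Wilson intervals. Where a count is 0, the share it allows is given as 3 counts over the total, a bound slightly lower than the upper end of the Wilson interval. Both cover counting error only. A gene without a listed site cannot be told apart here from a gene with too few reads to call one.

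In unstressed cells Keap1 holds Nrf2 in the cytoplasm and hands it to a ubiquitin ligase, so that Nrf2 is degraded as fast as it is made. Oxidants and electrophiles modify cysteines of Keap1, Nrf2 then accumulates in the nucleus, and with small Maf proteins it switches on genes for haem breakdown, quinone reduction, glutathione synthesis and thioredoxin recycling. Macrophages also take up and recycle much of the iron of the body, and Nrf2 targets, transferrin receptor and ferritin together set how much free iron such a cell holds. The m6A writer complex acts mostly on DRACH motifs (D = A, G or T; R = A or G; H = A, C or T), and m6A is known to be frequent near stop codons and in long exons.

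The site of highest score in each of the 7 genes is shown first, as the 21 bases centred on the A, read 5′ to 3′ on the transcript strand of GRCm38. Capitals mark the 5 bases centred on the site, so the middle capital is the listed A. All 7 sites were at DRACH, and they reached from 0.629 (Sqstm1) to 0.925 (Keap1).
Nfe2l2, chr2:75676241, minus strand: gccgcccaGAACTgtaggaaa
Keap1, chr9:21230305, minus strand: ggaagaagGGACAgctgaggc
Hmox1, chr8:75100048, plus strand: ggggctgtGAACTctgtccaa
Gclc, chr9:77793117, plus strand: cagtgtaaTAACTgatgaaat
Txnrd1, chr10:82896248, plus strand: accatgacAGACTcagactga
Sqstm1, chr11:50200601, minus strand: acgcctgaGAACAgacccagg
Tfrc, chr16:32630274, plus strand: ggctacttGGACTattcaggg

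The remaining 5 sequences are the sites of these genes whose 5 bases were not DRACH, and they are shown because the model can call sites outside the motif. In both Keap1 3′ UTR sequences the A stands directly 5′ of another A that was listed as well, at a DRACH motif.
Keap1 CDS, chr9:21237570, minus strand: ccctcgcaGGACGgtaaccga
Keap1 3′ UTR, chr9:21230412, minus strand: gaagccctTGAACtcccacca
Keap1 3′ UTR, chr9:21230271, minus strand: ctccctctGGAACtggggccc
Gclc CDS, chr9:77793220, plus strand: aaagcgaaGTACAgtggaggt
Sqstm1 3′ UTR, chr11:50200626, minus strand: gagagtttTGAATgtgcatat

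**Figure D1:**
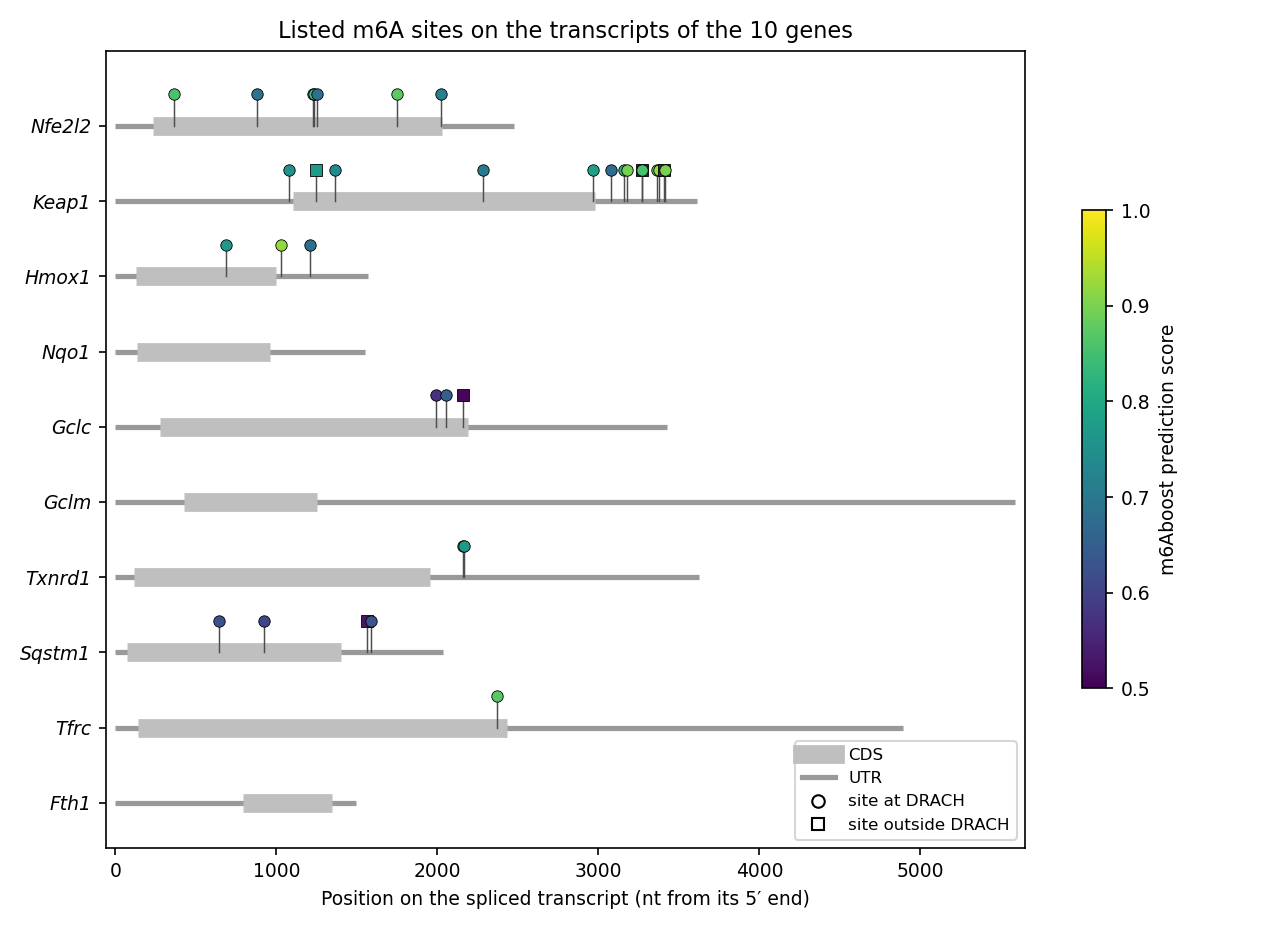
Each row is the spliced transcript with the longest coding sequence of 1 gene, drawn to scale in nt from its 5′ end, with the coding sequence (CDS) as a thick bar. Pins are listed sites, coloured by prediction score, with squares for the 5 sites outside DRACH; 10 of the 14 Keap1 sites lie in its last exon, while all 7 Nfe2l2 sites lie in the CDS.

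Keap1 and Nfe2l2, the sensor and the transcription factor it controls, held 21 of the 34 sites (61.8%, 45.0 to 76.1%). The other 5 genes with sites had between 1 and 4 each. Among coding genes with a site, the median was 3 sites and the third quartile 5, so Keap1 and Nfe2l2 lay above the third quartile and the others did not.

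Nfe2l2 (chr2:75675513-75704641, minus strand) carried 7 sites on its 2475 nt transcript, more than 82.7% of coding genes with a site. All 7 were in the CDS and all were at DRACH, with scores from 0.684 to 0.875 and a median of 0.812. The first, at codon 45 in exon 2 (0.857), lies in the stretch that encodes the N-terminal Neh2 region, through which Nrf2 binds Keap1. The other 6 fell in exon 5, the last exon. They were at codons 216 (0.691), 332 (0.812), 334 (0.846), 340 (0.684), 505 (0.875) and 597 (0.715). Of the 47 DRACH A in the CDS, 7 were listed (14.9%, 7.41 to 27.7%). The 3′ UTR had 0 listed of 16 DRACH A, which allows a share of up to 18.8% (Wilson interval 0 to 19.4%). The Wilson intervals overlap, so the list does not separate the CDS of Nfe2l2 from its 3′ UTR.

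The sites at codons 332 and 334 lay 6 nt apart at the same pentamer, TGACT, within a short repeat. This sequence was chosen for display after its values were seen.
Nfe2l2 tandem site, chr2:75676754, minus strand: aatgactcTGACTctggcatt
The upstream A of the pair is that of the tgact in lower case. The pair scored 0.812 and 0.846, and the site at codon 340 was 18 nt further on, which makes this the densest stretch of the gene. Txnrd1 had a pair of the same build, an AGACT repeated at 6 nt. Over the whole list, 158 pairs of neighbouring sites were 6 nt apart, and 30 of them repeated the pentamer. The last Nfe2l2 site stood 2 nt before the stop codon, so that the final T of its pentamer AAACT is the first base of the stop codon.

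Keap1 (chr9:21229730-21239361, minus strand), which encodes the cysteine-rich adaptor of the Cul3 ubiquitin ligase, had the most sites of the 10 genes, 14 on 3614 nt. Only 96 coding genes of the list had more. Of the 14 sites, 1 was in the 5′ UTR, 25 nt before the start codon (0.757), 4 were in the coding sequence, and 9 lay past the stop codon in the 3′ UTR. The CDS sites were at codon 47 (0.773), codon 87 (0.740), codon 394 (0.704) and codon 621 (0.784). The codon 621 site was 11 nt before the stop codon, and its AAACT pentamer is the one found at the end of the Nfe2l2 CDS.

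The 9 sites of the Keap1 3′ UTR lay between 101 and 434 nt past the first base of the stop codon. The first, at 101 nt, scored 0.676. The next pair, 18 nt apart, scored 0.821 and 0.896. A pair 15 nt apart further on scored 0.877 and 0.925, the highest score of all 34 sites and above 95.4% of the list. In this 3′ UTR, 7 of 18 DRACH A were listed (38.9%, 20.3 to 61.4%), against 7680 of 154023 in the 3′ UTRs of all coding genes with a site (4.99%, 4.88 to 5.10%). In the Keap1 CDS the share was 3 of 28 (10.7%, 3.71 to 27.2%), and this interval overlaps that of its 3′ UTR.

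The other 4 sites of the Keap1 3′ UTR were 2 neighbouring couples, in each of which the upstream A was outside DRACH and the downstream A was the centre of a GAACT. At 292 and 293 nt the scores were 0.521 and 0.854. At 433 and 434 nt they were 0.542 and 0.90. In both couples the DRACH site had the higher score. The list held 54 non-DRACH sites directly 5′ of a listed DRACH site, and in 54 of them the DRACH site had the higher score. The motif is part of the input of the score, so this order is not independent of the model. The non-DRACH Keap1 site at codon 47 (GGACG) was unlike such sites, with a score of 0.773 and its nearest listed site 120 nt away. The Keap1 3′ UTR is annotated differently between transcripts, and its sites were in an exon of 3 or 4 of the 5 coding transcripts.

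**Figure D2:**
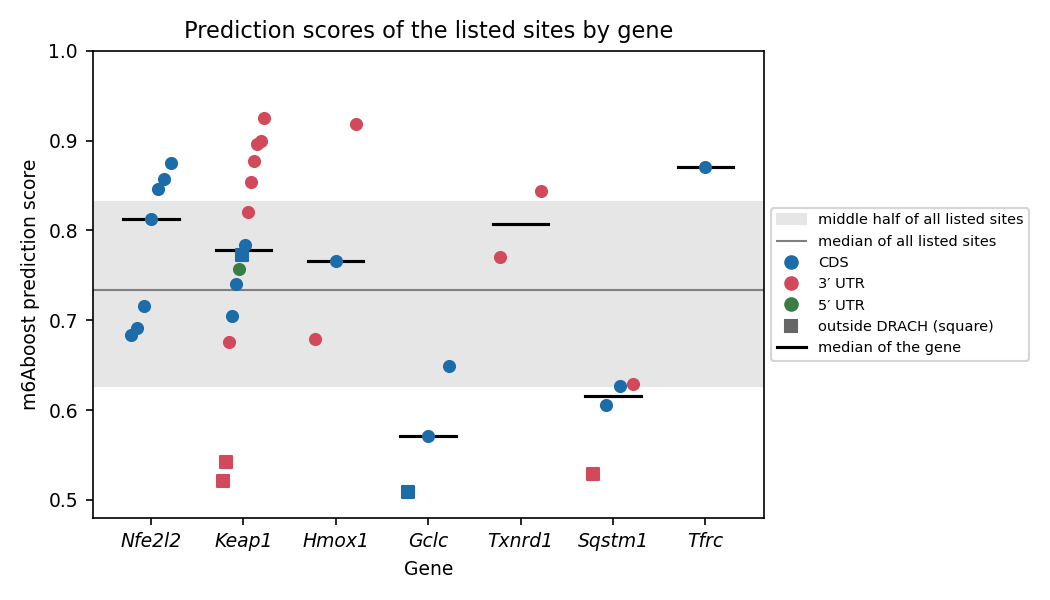
Points are the listed sites of each gene by m6Aboost prediction score, coloured by region, with squares outside DRACH, a black bar at the gene median, and a grey band from the first to the third quartile of all 19301 sites (0.627 to 0.832). The 3 Gclc sites and 4 Sqstm1 sites sit at or below 0.649, near the lower edge of the band or under it, while Keap1 spans 0.521 to 0.925.

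Among the target genes, Hmox1 (chr8:75093621-75100589, plus strand), whose product haem oxygenase 1 opens the haem ring and frees its iron, had 3 sites. The CDS site at codon 187 scored 0.765. The 3′ UTR sites, both at GAACT, were 31 nt and 210 nt past the start of the stop codon and scored 0.919 and 0.679. The first of these scored higher than 94.4% of the list and was 1 of only 2 sites of the 10 genes above 0.9. The listed share of DRACH A was 3 of 30 (10.0%, 3.46 to 25.6%).

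Gclc (chr9:77754535-77794485, plus strand), the catalytic subunit of glutamate-cysteine ligase, which makes the first step of glutathione synthesis, had 3 sites. They lay in the coding part of its last exon, exon 16, at 198, 132 and 29 nt before the stop codon. Their scores were 0.571, 0.649 and 0.509, and the last of these was the GTACA site outside DRACH. All 3 were below the median of the list (0.734). The gene median of 0.571 was higher than only 1.73% of the medians of the 2773 coding genes with 3 or more sites. The site at 198 nt was 11 nt from the nearest exon junction, the closest of the 34.

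Gclm (chr3:122245557-122270732, plus strand), the modifier subunit of the same ligase, had no listed site. Its transcript is the longest of the 10 at 5589 nt, 4335 nt of it 3′ UTR, and it holds 101 DRACH A. A count of 0 of 101 allows a share of up to 2.97% by the 3-count bound and 3.66% by the Wilson interval, and both are below the share over coding genes with a site (4.63%). Those genes were taken for having a site, and over them the share cannot be 0. The subunits of 1 enzyme thus differed in the list, with 2 of 67 DRACH A in Gclc (2.99%, 0.822 to 10.2%) and 0 of 101 in Gclm (0 to 3.66%), but the intervals overlap.

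Txnrd1 (chr10:82833951-82897712, plus strand), the cytosolic thioredoxin reductase, had 2 sites, the AGACT pair 205 and 211 nt past the start of the stop codon. They scored 0.844 and 0.770. None of its 41 CDS DRACH A was listed, which allows up to 7.32% by the 3-count bound. Nqo1 (chr8:107388225-107403206, minus strand), a quinone reductase and a classical Nrf2 target, had 0 listed of 26 DRACH A. With so few motifs a share of up to 11.5% is allowed by the 3-count bound (Wilson interval 0 to 12.9%), which includes the share over coding genes with a site.

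Sqstm1 (chr11:50199366-50210827, minus strand) encodes p62, an autophagy receptor that binds Keap1 and is itself an Nrf2 target. It had 4 sites. Those in the CDS, at codons 191 and 285, scored 0.627 and 0.605. Those in the 3′ UTR, 166 and 191 nt past the start of the stop codon, scored 0.529 and 0.629. The median of 0.616 was above 7.90% of gene medians, so Sqstm1, like Gclc, was listed with low scores throughout. Its site at 166 nt had the pentamer TGAAT, which only 2 of the 19301 sites shared, this one included.

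Tfrc (chr16:32608920-32632794, plus strand), the transferrin receptor that brings iron into the cell, had 1 site. It lay in the CDS, 60 nt before the stop codon, at a GGACT, the most frequent pentamer of the list (19.4%). Its score of 0.870 was above 84.8% of the list. It was the only listed one of 109 DRACH A (0.917%, 0.162 to 5.01%), and the 3′ UTR had 0 of 44, which allows up to 6.82% by the 3-count bound. The site was in the CDS in 1 of 3 coding transcripts of Tfrc and in an exon of 2 of its 7 annotated transcripts, so its region depends on the transcript chosen.

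The 3′ UTR of Tfrc is known for its iron-responsive elements (IREs), hairpins that the iron regulatory proteins bind when iron is low, and the 5′ UTR of Fth1, the ferritin heavy chain, carries another. A simplified IRE was searched on the sense strand as a C, a stem arm of 5 nt, the loop CAGTGN and 5 nt able to pair with the arm (G-U pairs allowed). The Tfrc 3′ UTR held 4 matches, at 891, 1270, 1335 and 1382 nt past the start of the stop codon, shown here with the loop in capitals.
Tfrc match at 891 nt: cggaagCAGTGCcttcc
Tfrc match at 1270 nt: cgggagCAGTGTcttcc
Tfrc match at 1335 nt: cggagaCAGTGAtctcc
Tfrc match at 1382 nt: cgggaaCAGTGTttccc
Fth1 5′ UTR match: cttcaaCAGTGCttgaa
The only Tfrc site was 951 nt or more upstream of all 4. For comparison, 0.507% of the 3′ UTRs of coding genes held a match, as did 1.41% of the 3339 that are at least as long as that of Tfrc. The pattern was found in 0.0934% of 5′ UTRs. A further match lay in the Keap1 CDS, 240 nt from the nearest listed site. The share of coding sequences with a match was not counted, and whether this match forms an IRE was not tested.

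Fth1 (chr19:9980598-9985098, plus strand) had no listed site, with 0 of 30 DRACH A and an allowed share of up to 10.0% by the 3-count bound (Wilson interval 0 to 11.4%). Its transcript with the longest CDS is of lower annotation support than those of the other 9 genes. The annotation names 2 Fth1 pseudogenes, and neither held a site. Whether reads are shared between the gene and these copies was not tested.

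**Figure D3:**
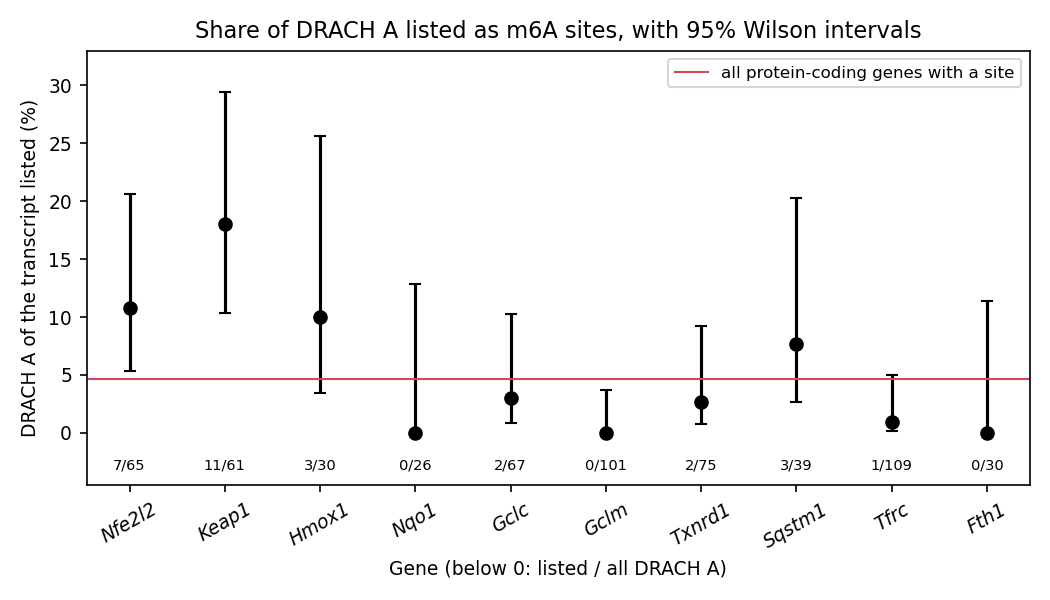
Share of the DRACH A of each transcript that is listed (%), with 95% Wilson intervals and the counts under each point; the red line is the share over all coding genes with a site (4.63%). Keap1 (18.0%) and Nfe2l2 (10.8%) have intervals wholly above the line, Gclm (0 of 101) wholly below it, and the other 7 intervals cross it.

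Over the 10 transcripts, 29 of 603 DRACH A were listed (4.81%, 3.37 to 6.82%). Over all coding genes with a site the share was 4.63% (4.56 to 4.70%). These sets are unlike, because the 603 include the DRACH A of Gclm (101), Fth1 (30) and Nqo1 (26), which held no site. The closeness of the shares is therefore not a like-for-like result. The genes spread widely around 4.81%. Keap1 had the highest share, 11 of 61 (18.0%, 10.4 to 29.5%), above that of 97.0% of the 4819 coding genes with a site and at least 20 DRACH A. Nfe2l2 followed with 7 of 65 (10.8%, 5.32 to 20.6%), above 86.8%, and then Hmox1 above 83.9% and Sqstm1 above 74.8%. Gclc (38.6%), Txnrd1 (34.1%) and Tfrc (8.38%) were in the lower part of that order. Neighbours in this order had overlapping intervals. The interval of Keap1 did not overlap those of Gclc, Txnrd1, Tfrc and Gclm.

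By region, 18 of the 34 sites were in the CDS (52.9%, 36.7 to 68.5%), 15 in the 3′ UTR (44.1%, 28.9 to 60.5%) and 1 in the 5′ UTR. The same shares over all coding genes were 49.8% and 42.1%. In every annotated coding transcript of their gene, 20 of the 34 sites fell in the same region. These include all sites of Nfe2l2, Hmox1 and Gclc, which have only 1 annotated coding transcript each, so that no other outcome was possible for them. No site was in an intron or in the span of another gene on the strand. The last exon held 26 of 34 (76.5%, 60 to 87.6%), against 68.4% over coding genes. Keap1 held 9 of the 15 3′ UTR sites, and without it the share in the 3′ UTR was 30% (14.5 to 51.9%), an interval that still includes the share over coding genes. Nfe2l2 (7 sites), Gclc (3) and Tfrc (1) had CDS sites only, and Txnrd1 (2) had 3′ UTR sites only.

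Within 200 nt of the first base of the stop codon lay 12 of the 34 sites (35.3%, 21.5 to 52.1%), against 32.3% over coding genes. Of the 88 DRACH A of the 10 genes in this window, 10 were listed (11.4%, 6.29 to 19.7%). Over coding genes with a site, 12.7% of 43971 were listed. These sets are unlike, because the 88 include DRACH A of Fth1 (13), Nqo1 (9) and Gclm (8), which held no site. The direction of the difference is therefore not a result. The sites nearest to a stop codon were those of Nfe2l2 (2 nt), Keap1 (11 nt), Gclc (29 nt) and Hmox1 (31 nt). For Txnrd1 the nearest was at 205 nt, just outside the window. Thus 6 of the 7 genes with sites had at least 1 within it.

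**Figure D4:**
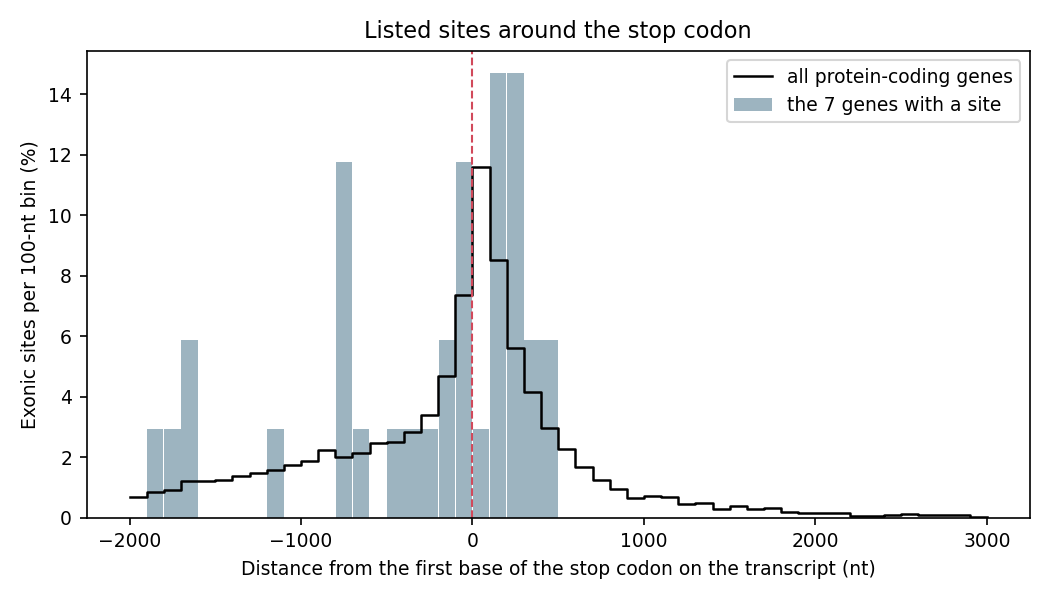
Share of exonic sites per 100-nt bin (%) by distance from the first base of the stop codon on the transcript (nt, negative upstream), for the 34 sites (bars) and for all coding genes (line). Only 1 of the 34 sites lies in the 100 nt from the stop codon onwards, the highest bin of all genes (11.6%), while the bins from 100 to 300 nt hold 5 each.

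At DRACH were 29 of 34 sites (85.3%, 69.9 to 93.6%), and 91.9% of the list (91.6 to 92.3%). Without Keap1 the share was 18 of 20 (90%, 69.9 to 97.2%). GAACT was the most frequent pentamer, at 7 sites, followed by GGACA at 5. GGACT, first in the list, was at 3 sites, in Nfe2l2, Keap1 and Tfrc. The median score was 0.761, against 0.734 over the list. The 3′ UTR sites had a median of 0.821 and the CDS sites of 0.728, and over coding genes these medians were 0.786 and 0.699. The region is itself an input of the score, so this gap is not independent of the model. Another listed site lay within 100 nt of 18 of the 34 (52.9%, 36.7 to 68.5%), against 60.1% over coding genes. For DRACH and for neighbouring sites, the intervals over these genes included the shares over the list or over coding genes.

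Of the 18 CDS sites, 14 had the A at the second base of its codon (77.8%, 54.8 to 91.0%), 3 at the first and 1 at the third. All 7 Nfe2l2 and all 4 Keap1 CDS sites were of this kind. Over coding genes 48.9% of 9983 CDS sites were at the second base. The DRACH motif itself falls unevenly on the reading frame, with 53.0% of the 328 CDS DRACH A of the 10 genes, and 49.7% over coding genes, at that position. The 11 sites of Nfe2l2 and Keap1 come from 2 transcripts and are not independent of each other.

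Beyond the 10 genes, 138 further genes of the pathway were taken in 5 lists, and 60 of them held a site (43.5%, 35.5 to 51.8%), with 221 sites in all. This count was read beside the 23.1% of all coding genes, many of which a macrophage does not express, and the part of expression in it was not tested. As a check of the cell type, 6 of 10 macrophage markers held a site, and 0 of 5 markers did in each of T cells, B cells, fibroblasts, epithelial cells and embryonic stem cells.

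Of the partners and regulators of Nrf2, 14 of 24 held a site (58.3%, 38.8 to 75.5%). Nfe2l1, the related cap'n'collar factor, had 18, of which 9 were in the CDS and the other 9 in no exon of its transcript with the longest CDS. Bach1, the haem-sensitive repressor of Nrf2 target genes, and the acetyltransferase Ep300 had 11 each, with 8 and 9 of these in the CDS. The small Maf genes Mafk and Mafg had 10 and 6, of which 9 and 5 were in the 3′ UTR. Cul3 and Rbx1, the other subunits of the Keap1 ligase, were listed with none.

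In the glutathione, thioredoxin and peroxide list, 16 of 31 genes held a site (51.6%, 34.8 to 68.0%). Txnip, the thioredoxin inhibitor, and Srxn1, which repairs overoxidised peroxiredoxins, had 10 each, 9 of them in the 3′ UTR in both genes. Oxsr1, a stress kinase, had 8, all in the 3′ UTR. Glrx5, a mitochondrial glutaredoxin, had 3, all in the CDS. The peroxiredoxin gene Prdx5 also had 3, in no exon of its transcript with the longest CDS. Of detoxification, haem breakdown and NADPH genes, 9 of 30 held a site (30%, 16.7 to 47.9%), an interval that includes the background. Pgd had 6 and G6pdx 5, the NADPH-producing enzymes of the pentose phosphate pathway. The exporter Abcc1 had 5, the aldo-keto reductase Akr1b8 had 4 and Aldh2 had 3.

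Among iron genes, 14 of 33 held a site (42.4%, 27.2 to 59.2%). Slc39a14, a transporter of zinc and non-transferrin-bound iron, had 12, all in the 3′ UTR, with a median score of 0.891 and a highest of 0.966. The mitochondrial iron importers Slc25a28 and Slc25a37 had 7 and 4. The iron chaperone Pcbp1 had 5, and Fbxl5, the iron-sensing subunit of the ligase that degrades an iron regulatory protein, had 4, all in the CDS. Thus several iron genes had more sites than Tfrc (1) and Fth1 (0).

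In the autophagy list, which holds relatives and partners of p62, 7 of 20 genes held a site (35.0%, 18.1 to 56.7%), and this interval also includes the background. Wdfy3, a large scaffold of selective autophagy, had 5. Tfeb, a transcription factor for lysosomal genes, had 4, Gabarapl1 3 and the p62 relative Nbr1 2. Map1lc3b had 1, in no exon of its transcript with the longest CDS.

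**Figure D5:**
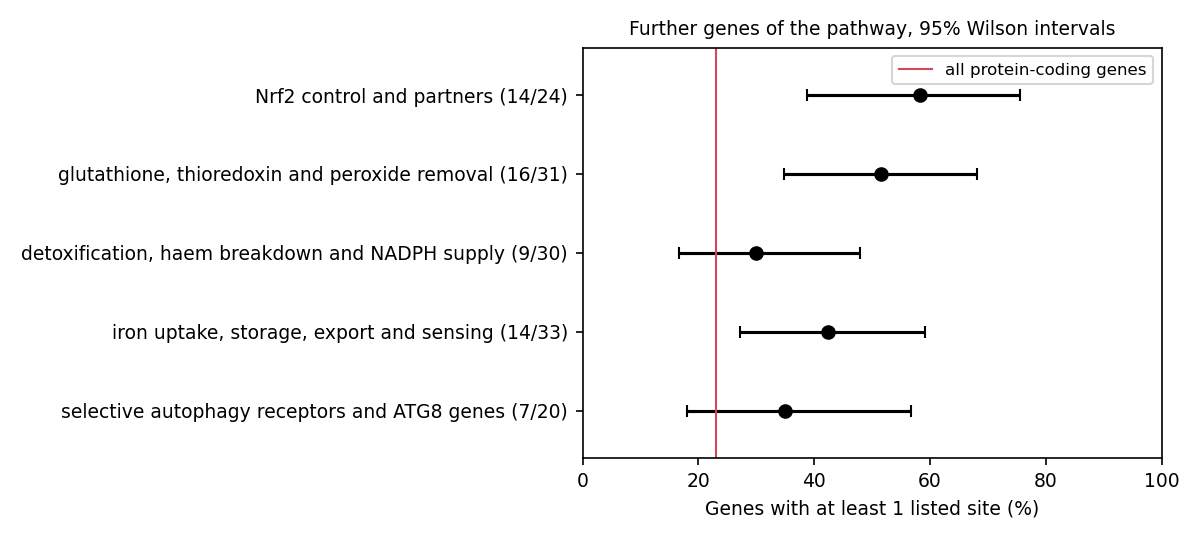
Percent of the genes of each pathway list with at least 1 listed site, with 95% Wilson intervals and the counts in brackets; the red line is the share over all coding genes (23.1%). The lists of Nrf2 partners, glutathione and thioredoxin, and iron lie wholly above the line, and the other 2 intervals cross it.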

How the data were processed

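The list gives predicted m6A sites of RAW 264.7 cells, 3 replicates of 1 group. They were taken as untreated, and their titles name no treatment. The authors mapped the reads to GRCm38 (the submitters' notes name STAR 2.7.3a, SAMtools 1.9, UMI-tools 1.0.0 and bedtools 2.27.1) and called peaks with PureCLIP, keeping peaks found in at least 2 of the 3 replicates. The deposited values are m6Aboost prediction scores above 0.5, pooled over the replicates, so sites scored lower are missing from the list.

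Here the start was read as 0-based, and sites were placed on the transcript with the longest CDS in GENCODE M21 (ties to the longest transcript), whereas the authors used another release of GENCODE. Sequences were read from the GRCm38 genome with pysam 0.24.0. Calculations used Python 3.11.15 with SciPy 1.17.1, pandas 2.3.3 and NumPy 2.4.6. Figures were drawn with matplotlib 3.10.9. The placement was tested on 2000 simulated sites in 200 transcripts, and 100% were placed correctly. With 1 pooled list no test was possible, and no p-value is given.

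The genes and lists were chosen with earlier results of these data known. Named genes were the 10 genes and, in each of the 5 lists, the 5 genes holding the largest numbers of sites (for equal numbers, the gene with the higher top score); Cul3 and Rbx1 were named after their values were seen. Sequences were shown for the highest site of each gene and for each site outside DRACH. Alternatives varied the minimum score, the collapse of close sites, transcript choice, gene assignment, windows and the start coordinate. Those without Keap1 and those per gene were chosen after seeing the data.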

Additional observations from a re-analysis of the deposited data

How the results depend on the processing

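Of the 57 alternatives run for the 10 results, 38 moved the value by less than its interval or by less than 1.5 times for a count, and 19 moved it further. With a minimum score of 0.7, 21 sites in 5 of the 10 genes were left (Gclc and Sqstm1 had 0), 95.2% of them at DRACH, with 3.32% of DRACH A and 19.0% of coding genes listed. At 0.9, 2 sites in 2 genes (Keap1 and Hmox1) were left, 100% at DRACH and 100% in the 3′ UTR, 0% with another site within 100 nt, at a median score of 0.922. There 0.332% of DRACH A, 14 pathway genes and 6.205% of coding genes were listed. These falls follow from fewer sites. Near the stop codon lay 14.7% of the sites with a 100 nt window and 61.8% with 400 nt, and 73.5% had another site within 200 nt. Read as 1-based, the start gave 5.88% at DRACH. Giving each site to the longest gene put the share of coding genes with a site at 22.2%, and over all annotated genes it was 9.33%.

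No paired analysis was possible because the replicates were pooled into 1 list, and for the same reason no replicate could be left out. Depth at a site, expression and methylation level are unknown, so a missing site is not an unmethylated one. The 34 sites give wide intervals, and Keap1 alone gives 14 of them.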
